A study of Mus musculus with 1753 samples.

Results

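Thrombospondins are secreted glycoproteins of the extracellular matrix, and 5 genes make up the family in the mouse: Thbs1, Thbs2, Thbs3, Thbs4 and Comp, the cartilage oligomeric matrix protein. All 5 members were taken by gene symbol from the 46517 genes of the deposited count table, of which 30309 had a count in any cell. The data used here were 1753 single cells of adult male mouse skeletal muscle, each sequenced by SmartSeq2, a full-length protocol without molecular identifiers. The study asked how fibroblasts and mural cells, the contractile cells that wrap blood vessels, differ between and within organs, and its authors sorted the muscle cells by flow cytometry and gave each a cluster label from 1 to 10. They named clusters 2 and 9 perimysial (from the sheaths around fibre bundles), cluster 4 paramysial, clusters 1, 3, 5, 6 and 8 endomysial (between single fibres) and cluster 7 mural, while cluster 10 held fibroblasts with Ngfr and Cspg4.

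The mice were 10 to 20 weeks old and carried 1 of 5 strain labels. C57BL6 mice had no reporter (373 cells), and their cells were sorted with antibodies to PDGF receptors. Acta2GFP (157 cells), Cspg4dsRED (181 cells) and PdgfrbGFP (630 cells) mice carried a fluorescent reporter driven by the regulatory sequence of the named gene, so the reporter set which cells could be sorted. The PdgfraGFP - PdgfrbGFP pool (412 cells) joined tissue of a Pdgfra and a Pdgfrb reporter mouse, so its cells cannot be assigned to a mouse. Endothelial cells were gated out by CD31 in all groups. The labels name no animal, so the strain label was the unit of replication, and the spread between strain labels takes in reporter, gate, plate and depth. Counts per cell ranged from 46097 to 1055869 with a median of 258251, and each cell was scaled to 500000 counts. A level is the mean of these scaled counts over the cells of a cluster or class within a strain label that had 3 or more such cells, given as mean ± SD over strain labels. Log2 fold changes, and log2 differences within a strain label, came instead from counts summed over cells, in which deeper cells weigh more.

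The labelled classes were checked against markers. Myh11, a smooth muscle myosin, was at 2235 ± 474 scaled counts in mural cells and at 3.86 to 8.08 in perimysial, paramysial and endomysial cells. Tnmd, the tendon gene tenomodulin, was at 1261 ± 165 in perimysial cells, and Postn, which encodes periostin, was at 1970 ± 299 in paramysial cells. Postn was not confined to these, since perimysial cells also had more of it than endomysial cells (log2 fold change 2.51, SE 0.26). Summed with C1qtnf3 and Cthrc1, it was at 2672 in paramysial cells (1699 to 3367 over strain labels) and at 1384 in cluster 9 (649 to 2662). Pdgfra, a general fibroblast marker, was at 352 ± 126 in endomysial cells but at 13.8 ± 9.06 in perimysial cells. The clusters were made by the study from these same counts, and Thbs1 and Thbs4 were among the genes by which it recognised perimysial cells. It described paramysial cells by Thbs4 with low Thbs1, and by Postn. Comparisons between classes therefore measured how far the strain labels shared a difference, and are no independent evidence that the classes differ.

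Thrombospondins fall into a subgroup that assembles as trimers (Thbs1 and Thbs2) and a subgroup that assembles as pentamers (Thbs3, Thbs4 and Comp). Thbs1 is released by platelets and many other cells, binds the receptors CD47 and CD36 and can activate latent TGF-beta, while Thbs2 binds matrix metalloproteinases and influences the shape of collagen fibrils. Thbs4 and Comp are abundant in tendon and other tissue under load, where Comp binds fibrillar collagens, matrilins and fibronectin.

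In the GRCm38 annotation Thbs1 (ENSMUSG00000040152) lay on chromosome 2, from 118111876 to 118127133 on the plus strand. Thbs2 (ENSMUSG00000023885) lay on chromosome 17, from 14665500 to 14694235 on the minus strand. Thbs3 (ENSMUSG00000028047) lay on chromosome 3, from 89215180 to 89226837 on the plus strand. These genes had merged exon lengths of 6073, 7003 and 4823 bases, in that order. Thbs4 (ENSMUSG00000021702) lay on chromosome 13, from 92751590 to 92794818 on the minus strand, with 3289 bases of exon. Comp (ENSMUSG00000031849) lay on chromosome 8, from 70373558 to 70382066 on the plus strand, with 2967 bases of exon. Levels were compared between members only per kilobase of these lengths. No members shared a 50-base stretch of transcript, but Thbs1 exons shared 208 bases with the non-coding gene Gm29233 and Thbs3 exons shared 318 bases with Mtx1, both on the opposite strand. The protocol keeps no strand, so reads within those stretches cannot be told apart.

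RefSeq promoter windows on GRCm38.p6 matched 3 of the 5 members, and the 250 bases before the annotated start are shown because Thbs2 and Thbs4 were higher in perimysial cells while Thbs3 was lower there. Capitals mark the TATA motif TATAAA, the CAAT box motif CCAAT, the GC box motif GGGCGG, the AP-1 motif TGANTCA and the E-box motif CAGATG, each searched on both strands. The windows lie at chr17:14694263-14694512 (minus strand), chr3:89214930-89215179 (plus strand) and chr13:92794819-92795068 (minus strand), and each is written 5′ to 3′ on the strand of its gene.
Thbs2: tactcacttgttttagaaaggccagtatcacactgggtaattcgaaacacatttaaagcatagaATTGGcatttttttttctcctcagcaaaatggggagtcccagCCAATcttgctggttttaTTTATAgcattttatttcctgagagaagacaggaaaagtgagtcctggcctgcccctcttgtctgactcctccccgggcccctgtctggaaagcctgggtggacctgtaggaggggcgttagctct
Thbs3: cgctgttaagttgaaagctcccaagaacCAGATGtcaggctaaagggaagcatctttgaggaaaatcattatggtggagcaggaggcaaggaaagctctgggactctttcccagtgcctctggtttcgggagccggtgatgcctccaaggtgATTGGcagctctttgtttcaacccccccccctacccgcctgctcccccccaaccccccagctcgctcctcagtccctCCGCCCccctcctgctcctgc
Thbs4: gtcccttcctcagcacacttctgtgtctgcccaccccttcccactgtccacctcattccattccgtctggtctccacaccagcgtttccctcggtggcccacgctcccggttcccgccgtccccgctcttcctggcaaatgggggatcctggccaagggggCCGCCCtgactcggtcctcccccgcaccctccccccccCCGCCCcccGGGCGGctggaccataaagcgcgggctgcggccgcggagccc
The Thbs2 window held TATAAA at position -126, counted back from the start, and CCAAT at -186 and -144. The Thbs3 window held CCAAT at -98, GGGCGG at -21 and CAGATG at -222. The Thbs4 window held GGGCGG at -89, -51 and -42, and TGANTCA was in none of these windows. Of 32851 promoter windows of this length, 12.4% held TATAAA, 33.8% CCAAT, 32.7% GGGCGG, 6.75% TGANTCA and 14.4% CAGATG. The windows of Thbs1 and Comp were not used here.

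Cluster 2, the larger perimysial cluster with 269 cells, had the highest mean level of Thbs1, Thbs2, Thbs4 and Comp among the 10 clusters. Thbs3 had its highest mean in cluster 5. The plot of levels by cluster gives every strain label.

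**Figure D1:**
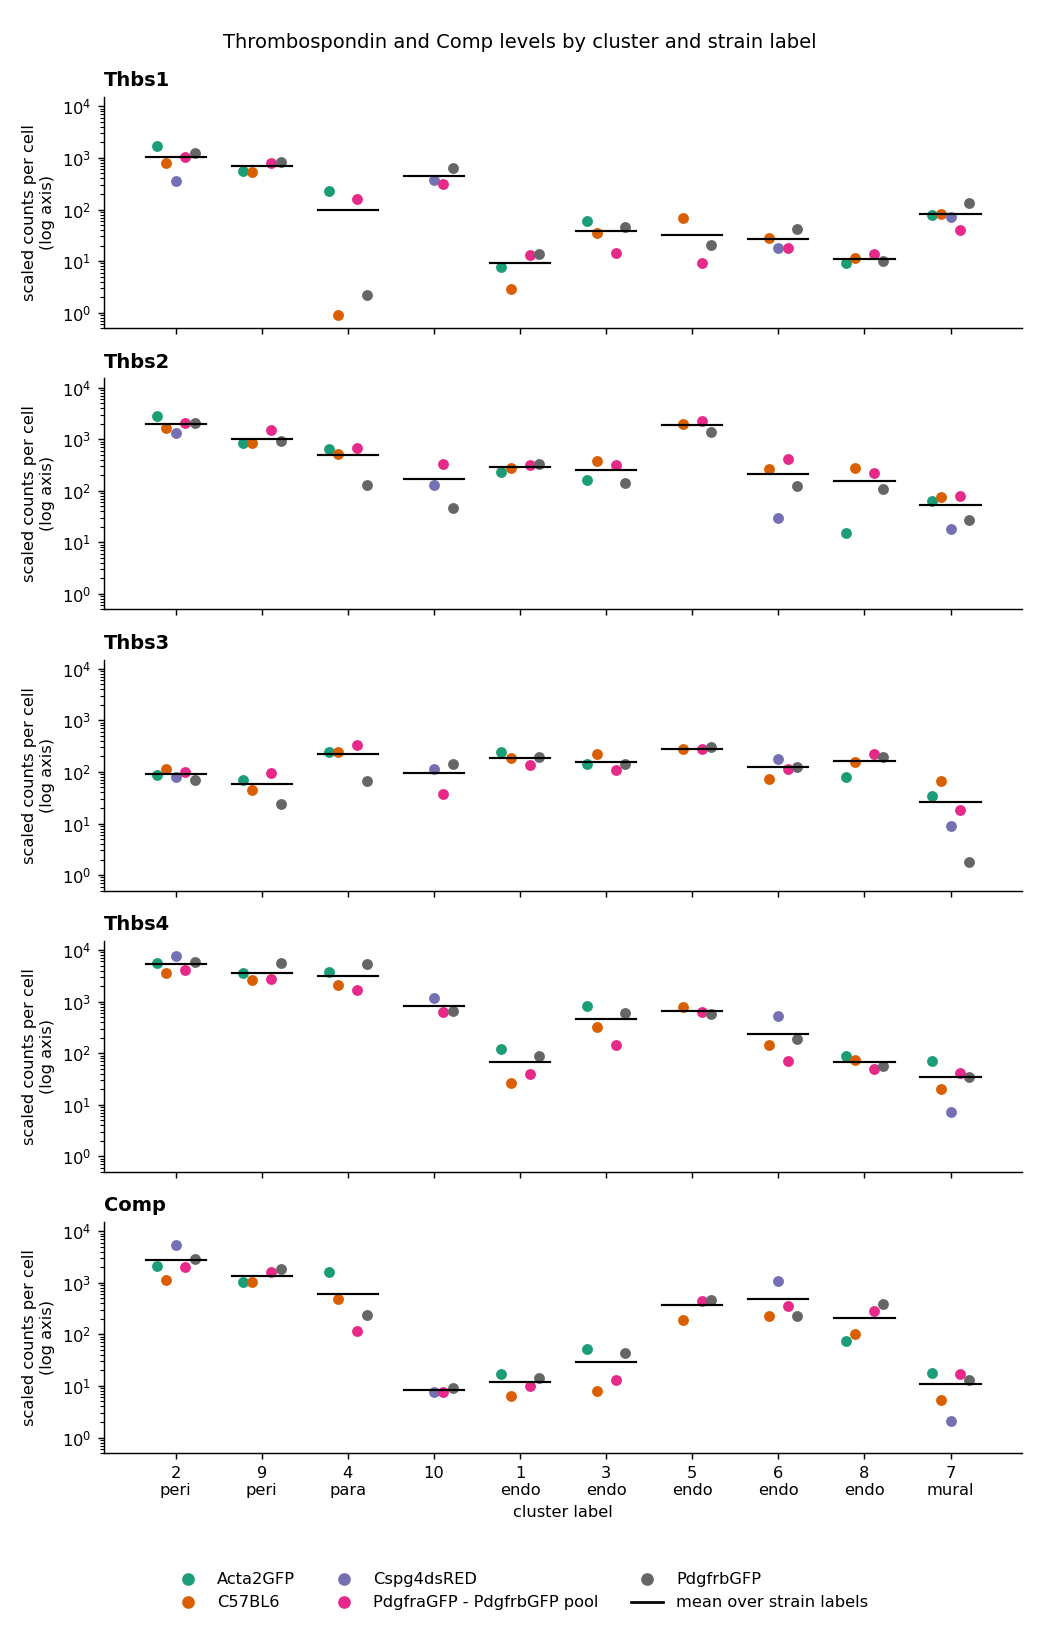
Level of each gene (scaled counts per cell, log axis) in the 10 clusters. Each point is a strain label with 3 or more cells in the cluster and each line is the mean over strain labels. Thbs4 and Comp sat highest in clusters 2 and 9, the Thbs2 points of clusters 2 and 5 overlapped, and Thbs3 was lowest in cluster 7.

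Thbs1 had the largest log2 fold change of the members between perimysial and endomysial cells. In perimysial cells it was at 961 scaled counts in Acta2GFP, 790 in C57BL6, 380 in Cspg4dsRED, 986 in the pool and 1168 in PdgfrbGFP. In endomysial cells the same strain labels gave 43.0, 24.0, 16.9, 14.5 and 29.0. The lowest perimysial value was above the highest endomysial value, and the log2 fold change was 5.22 ± 0.26 (SE), called at an adjusted p of 0.00011 (quasi-likelihood fit in edgeR, Benjamini-Hochberg over all genes tested).

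Cluster 10 came next after the perimysial clusters for Thbs1, at 438 ± 174 over 3 strain labels, and 33 of its 62 cells reached 100 scaled counts, the level the study used for detection. Cluster 2 was at 1029 ± 504 and cluster 9 at 685 ± 161, a gap smaller than the SD of cluster 2, although cluster 2 was higher in 4 of 4 strain labels that had both. Mural cells were at 80.5 ± 32.6, above every endomysial cluster mean (9.29 to 39.1). The neighbours in the order cluster 4, cluster 7 and the endomysial clusters did not all differ beyond their spread, since cluster 4 ran from 0.895 to 226. In cluster 2, 187 of 269 cells held 200 or more scaled counts of Thbs1 and 58 held fewer than 50.

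Thbs1 is also known as an early response gene, so 12 immediate early genes such as Fos and Egr1 were summed in the same cells. Their summed level was 4835 in perimysial cells (3643 to 5940 over strain labels), 6017 in endomysial cells (4051 to 7552), 4833 in mural cells and 16480 in cluster 10 (8206 to 23831), the highest of the classes. The sum was lower in perimysial than in endomysial cells, with overlapping ranges, and of the 12 genes 2 were called between them, both lower in perimysial cells. In cluster 10 the high sum went with the high Thbs1 level, and its part in that level was not tested. Platelet genes (Pf4, Ppbp, Itga2b, Gp9 and Gp1bb) summed to 13.8 scaled counts in perimysial cells and 26.3 in endomysial cells. The part of an early response or of platelets in the perimysial Thbs1 level was not tested.

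Thbs2 reached 100 scaled counts in 96.0% of perimysial cells, 80% of paramysial cells, 39.7% of endomysial cells, 27.4% of the cells of cluster 10 and 11.2% of mural cells. In perimysial cells it was at 1524 scaled counts in Acta2GFP, 1574 in C57BL6, 1180 in Cspg4dsRED, 1907 in the pool and 1923 in PdgfrbGFP. In endomysial cells the same strain labels gave 130, 398, 28.0, 341 and 195. The groups did not overlap, and the log2 fold change was 3.18 ± 0.42 (edgeR adjusted p = 0.0050). Cluster 5, an endomysial cluster of 31 cells, stood at 1885 ± 467 against 1982 ± 571 in cluster 2, and all 31 of its cells reached 100 scaled counts. The difference between clusters 2 and 5 was smaller than the SD of either, and cluster 2 was the higher in 1 of 3 strain labels.

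In the other endomysial clusters the mean of Thbs2 ran from 156 ± 117 in cluster 8 to 289 ± 45.3 in cluster 1. Cells within these clusters were split: in cluster 3, 234 of 440 cells held fewer than 50 scaled counts, with a median of 7.01, and 163 held 200 or more, with a median of 487. In cluster 1, 56 of 161 cells held fewer than 50 and 74 held 200 or more. Clusters 6 and 8 lay more to the low side, with 157 of 231 and 183 of 253 cells under 50. Mural cells were at 52.4 ± 28.1 with a median of 4.93.

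Thbs3 ran the other way. In perimysial cells it was at 76.3 scaled counts in Acta2GFP, 106 in C57BL6, 71.6 in Cspg4dsRED, 97.9 in the pool and 64.0 in PdgfrbGFP, and in endomysial cells at 139, 165, 162, 127 and 169. The groups did not overlap, and Thbs3 was lower in perimysial cells of 5 of 5 strain labels, with a log2 fold change of -0.81 ± 0.19 (edgeR adjusted p = 0.0498). This call was marginal: DESeq2, which called 14.6% of all genes, kept it (adjusted p = 0.018), whereas RLE size factors (edgeR adjusted p = 0.071), leaving out the filter on low counts (0.068), leaving out the strain block (0.093), plates as units (0.064) and leaving out any strain label (0.066 to 0.24) did not.

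The order of clusters for Thbs3 was shallow, from 283 ± 15.3 in cluster 5 and 222 ± 111 in cluster 4 down to 58.4 ± 30.2 in cluster 9 and 26.1 ± 25.9 in mural cells. No neighbours from cluster 5 down to cluster 2 differed by more than their SD. The steps from cluster 2 to cluster 9 and from cluster 9 to mural cells were slightly larger than it. Of the mural cells 176 of 187 held fewer than 50 scaled counts of Thbs3, while 49 of 60 paramysial cells reached 100.

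Thbs4 was the most abundant member per kilobase in fibroblasts of the sheaths. In perimysial cells it was at 4295 scaled counts in Acta2GFP, 3515 in C57BL6, 7574 in Cspg4dsRED, 3762 in the pool and 5724 in PdgfrbGFP. In endomysial cells the same strain labels gave 580, 190, 485, 107 and 297. The groups did not overlap, and the log2 fold change was 4.12 ± 0.34 (edgeR adjusted p = 0.00063), with the smallest difference, 2.55, in Acta2GFP.

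All 328 perimysial cells reached 100 scaled counts of Thbs4, as did 59 of 60 paramysial cells. After clusters 2 (5378 ± 1615), 9 (3583 ± 1355) and 4 (3167 ± 1641) came cluster 10 at 822 ± 317, in which 46 of 62 cells reached 100. Endomysial clusters ranged from 66.6 ± 18.0 in cluster 8 to 660 ± 105 in cluster 5. Clusters 9 and 4 did not differ beyond their spread, nor did neighbours in the order of clusters 10, 5, 3, 6, 1 and 8. That spread ignores pairing by strain label. Within strain labels that had both, cluster 9 was above cluster 4 in 3 of 4. Cluster 10 was above 5 in 2 of 2, 5 above 3 in 2 of 3 and 3 above 6 in 3 of 3. Cluster 6 was above 1 in 3 of 3 and 1 above 8 in 2 of 4.

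Low counts of Thbs4 were found in nearly all cells. Mural cells, in which Thbs4 was lowest, had a count in 80.7% of 187 cells, with a median of 19.1 scaled counts. On the 8 plates the mural median ran from 0 to 53.8 and never exceeded 5.06% of the mean of the plate. The medians of all endomysial clusters (21.2 to 38.5) lay within that range. In clusters 1 and 8 the share of all cells with 100 or more, 6.21% and 7.11%, was below the 8.56% of mural cells. As a mean over strain labels this share was 11.6% and 9.29% against 8.82% in mural cells, so the order depended on the weighting. Mural cells were also shallower (a median of 156959 counts against 334153 and 277080). In clusters 1 and 8, 7 of 161 and 10 of 253 cells held 200 or more scaled counts, with medians of 322 and 561. The shares in clusters 6, 3 and 5 were 23.8%, 34.1% and 41.9%. In these clusters 42 of 231, 128 of 440 and 12 of 31 cells held 200 or more scaled counts, with medians of 570, 854 and 1031, against 2 of 187 mural cells.

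Comp was at 1417 scaled counts in perimysial cells of Acta2GFP, 1104 in C57BL6, 5062 in Cspg4dsRED, 1929 in the pool and 2693 in PdgfrbGFP. In endomysial cells the same strain labels gave 68.1, 96.3, 1000.3, 102 and 183. Cspg4dsRED was the highest in both classes, and the groups did not overlap. The log2 fold change was 3.70 ± 0.28 (edgeR adjusted p = 0.00047), with the smallest difference, 2.42, in Cspg4dsRED. Not every strain label had 3 or more cells in every endomysial cluster, and in cluster 6 Comp ran from 222 to 1107 over strain labels. The part of the clusters in the endomysial values was not tested. By cluster, as mean ± SD over the 3 to 5 strain labels with cells there, Comp ran from 2716 ± 1650 in cluster 2 and 1374 ± 410 in cluster 9 over 611 ± 674 in cluster 4, 475 ± 425 in cluster 6, 368 ± 154 in cluster 5 and 209 ± 145 in cluster 8 to 8.16 to 29.3 in the other clusters. The steps from cluster 9 to 4, from 5 to 8 and from 8 to 3 were larger than the larger SD of the pair, and the others were not. Of those others, the steps from cluster 2 to 9 and from 3 to 1 held in 4 of 4 strain labels with both. The rest did not hold in all. The ranges over strain labels overlapped at each step but that from cluster 8 to 3.

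The plot of single cells shows that Comp was split in most clusters. In cluster 2, 214 of 269 cells held 200 or more scaled counts, with a median of 2224, 5 lay from 50 to 200 and 50 held fewer than 50, with a median of 13.7. In cluster 6, 62 of 231 cells held 200 or more, with a median of 1005, and in cluster 8, 53 of 253 did, with a median of 867. Cluster 1 had 1 such cell of 161 and cluster 3 had 9 of 440. None of 187 mural cells (a limit of 1.60%, or 3 cells in 187) and none of 62 cells of cluster 10 (a limit of 4.84%) reached 200. The medians of the cells under 50 ran from 4.39 to 13.7 over the clusters, against a median of 6.41 over all mural cells.

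**Figure D2:**
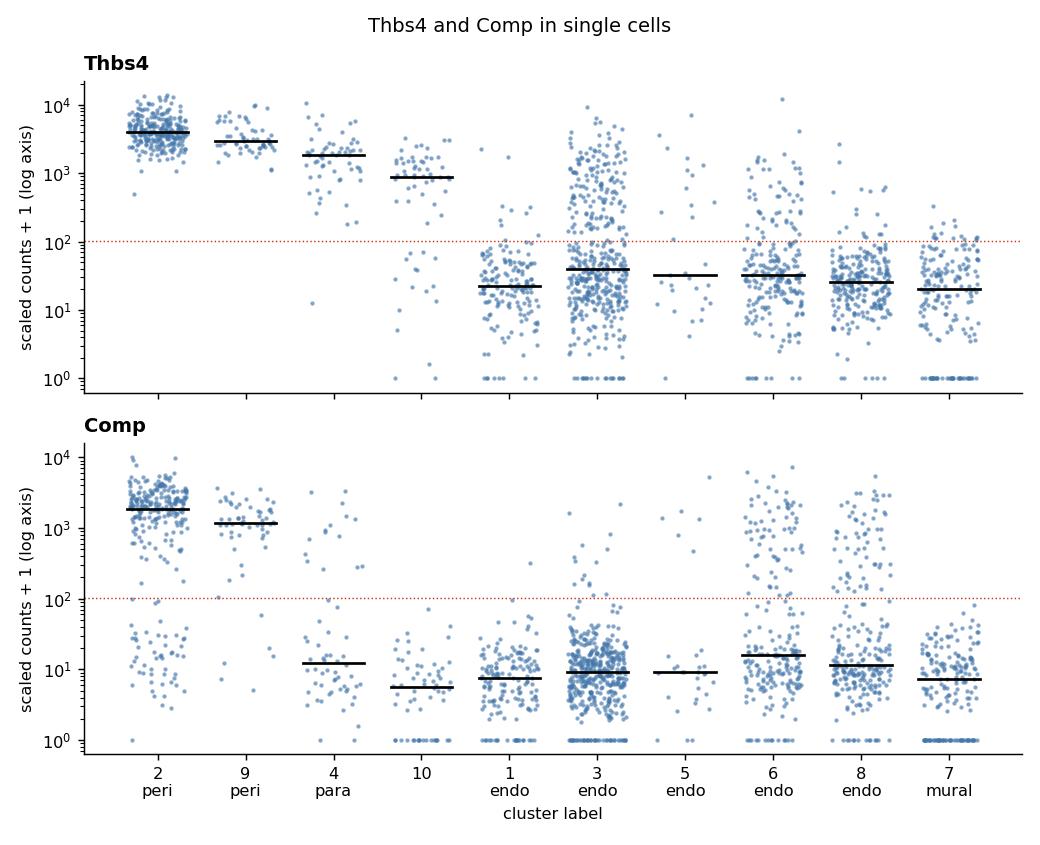
Thbs4 and Comp in single cells by cluster (scaled counts + 1, log axis). Each point is a cell, each black line is the median over cells and the dotted line marks 100 scaled counts. Thbs4 was high in all cells of clusters 2 and 9, whereas Comp split clusters 2, 4, 6 and 8 into a high and a low set of cells.

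The edgeR test called 787 of 14121 genes between perimysial and endomysial cells (5.57%), of which 2.32% were higher and 3.26% were lower in perimysial cells. All 5 members were called, Thbs1, Thbs2, Thbs4 and Comp as higher and Thbs3 as lower. Of the genes tested, 0.956% had a larger log2 fold change than Thbs1 and 2.12% had a larger one than Thbs2, the lowest of these 4 members. The median over the members was 3.70, and over all genes tested it was -0.19.

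Of 328 perimysial cells, 50 held 100 or more scaled counts of all 5 members, 185 of 4, 72 of 3, 19 of 2 and 2 of 1. Since all of them reached 100 for Thbs4, its overlap with another member equals the share of that member. Thbs1 and Comp were found together in 220 cells, Thbs1 alone in 37, Comp alone in 49 and neither in 22. Among endomysial cells Thbs4 without Comp was found in 200 of 1116 cells, Comp without Thbs4 in 110 and both in 46. Within perimysial cells the levels hardly followed each other: the Pearson correlation of log2 levels after removing strain means was 0.25 for Thbs1 and Comp and -0.04 for Thbs4 and Comp, over cells that share plates and differ in depth.

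The level of Thbs4 in cluster 2 also moved with depth. It was highest in Cspg4dsRED (7706), where the cells had a median of 86982 counts, and lowest in C57BL6 (3595), with a median of 273708. When the cells of cluster 2 were divided into 3 sets of 90, 88 and 91 cells by depth within each strain label, Thbs4 was at 6833 ± 1958 in the shallow set, 5481 ± 1951 in the middle set and 3897 ± 1208 in the deep set. Its medians over cells ran the same way, from 4999 to 4411 and 3209. The means of Comp were 3239 ± 2002, 2654 ± 2046 and 2310 ± 1087, but its medians were 1795, 1889 and 1925, and the means of Thbs1, Thbs2 and Thbs3 had no such order. The highest count of Thbs4 in a cell was 4161, which is 63.3% of the start positions that its exons offer on both strands, against 46.8% for Comp, 26.9% for Thbs2, 26.5% for Thbs1 and 10.4% for Thbs3. The part of depth in the differences between strain labels was not tested.

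Per kilobase of exon, the family summed to 2725 ± 982 scaled counts in perimysial cells, 1301 ± 556 in paramysial cells, 266 ± 151 in endomysial cells and 40.3 ± 13.6 in mural cells. Thbs4 made up 55.9% ± 3.68 of the sum in perimysial cells and was the largest part in 5 of 5 strain labels. Comp followed with 28.1% ± 7.77, then Thbs2 with 9.44% ± 3.41, Thbs1 with 5.85% ± 2.49 and Thbs3 with 0.723% ± 0.35. In endomysial cells the makeup varied between strain labels: Thbs4 was the largest part in 3 of 5, Thbs2 in 1 and Comp in 1. Not every strain label had 3 or more cells in every endomysial cluster, and in cluster 6 Comp was the largest part in 4 of 4. The part of the clusters in the variation between strain labels was not tested. In cluster 10 the sum was 369 ± 87.3, of which Thbs4 made up 66.4% ± 9.97, Thbs1 20.3% ± 9.35 and Comp 0.772% ± 0.186. In the low mural sum Thbs1 had the highest mean share, 36.7% ± 19.6, but was the largest part in 2 of 5 strain labels, as was Thbs4.

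**Figure D3:**
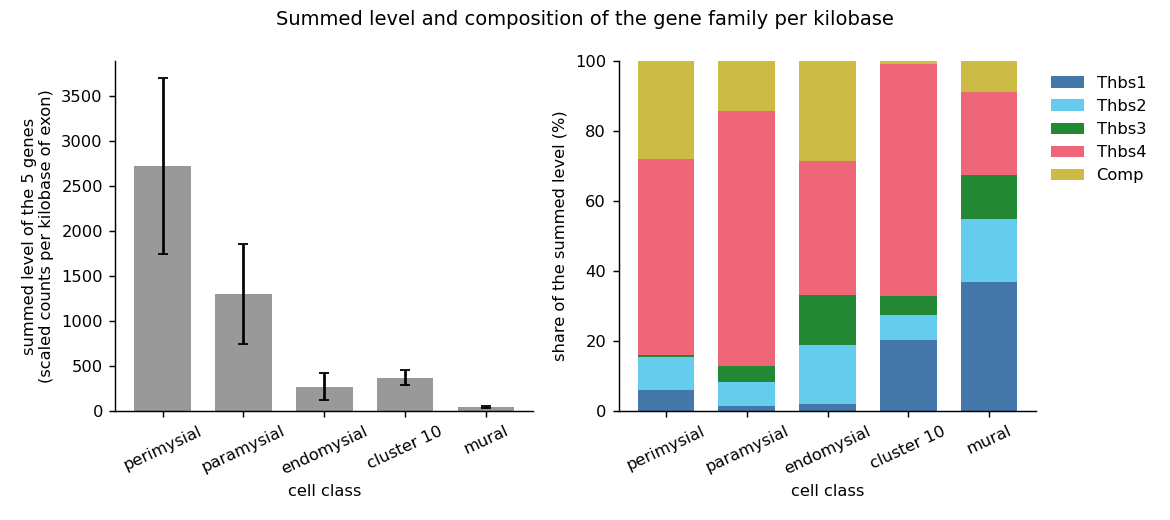
Left, summed level of the 5 genes in scaled counts per kilobase of exon by cell class, mean and SD over strain labels. Right, mean share of each gene in that sum, in percent. Perimysial cells had the highest sum (2725), and Thbs4 was the largest part in perimysial, paramysial and endomysial cells and in cluster 10, but not in mural cells.

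Paramysial cells were few, 60 in all, of which 46 came from the pool, 6 from Acta2GFP, 4 from PdgfrbGFP and 3 from C57BL6, the strain labels with 3 or more. They were also deep, with a median of 595321 counts against 276880 in endomysial cells. Thbs4 was at 3706 scaled counts in Acta2GFP, 2068 in C57BL6, 1656 in the pool and 5239 in PdgfrbGFP, all above the endomysial cells of the same strain label. It was the only member called against endomysial cells (log2 fold change 3.39 ± 0.34, edgeR adjusted p = 0.0032), in a test that called 14 of 14533 genes (0.0963%), 0.0757% as higher. DESeq2 also called 1 member, Thbs4, among 5.42% of all genes. Leaving out the strain block ended this call (log2 fold change 3.34, edgeR adjusted p = 0.080). The median log2 fold change of all genes tested was -0.86 with the strain block and -0.18 without it. Paramysial libraries thus stood lower in most genes of these fits. Single paramysial cells, in contrast, had counts for a median of 6903 genes, against 4583 in endomysial cells.

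The other members were uneven in paramysial cells. Thbs1 was at 226 scaled counts in Acta2GFP and 163 in the pool, but rested on 3 counts in all in C57BL6 and on 3 in PdgfrbGFP. Comp was at 1596 in Acta2GFP and 119 in the pool, and 15 of 60 cells reached 100. Thbs2 was at 641, 525, 669 and 131 in Acta2GFP, C57BL6, the pool and PdgfrbGFP. Thbs3 was at 247, 238, 334 and 67.7 in the same order. The log2 fold changes against endomysial cells were -0.24 ± 1.68 for Thbs1, 0.90 ± 0.37 for Thbs2, 0.36 ± 0.42 for Thbs3 and 1.43 ± 0.53 for Comp (edgeR adjusted p from 0.57 to 0.98).

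Against perimysial cells, 112 of 12861 genes were called (0.871%) and none of the members was. An unadjusted edgeR p under 0.05 was reached by 5 of 5 members and by 1066 of the 12861 genes. The log2 fold changes were -5.47 ± 1.39 for Thbs1, -1.83 ± 0.44 for Thbs2, 1.11 ± 0.40 for Thbs3, -0.65 ± 0.23 for Thbs4 and -2.58 ± 0.55 for Comp, with edgeR adjusted p of 0.18, 0.16, 0.42, 0.39 and 0.086. Without Acta2GFP, 3 members were called (Thbs1, Thbs2 and Comp, all lower in paramysial cells), in a fit that called 0.868% of all genes. DESeq2 called 2 members (Thbs1 and Comp) and 8.45% of all genes. Without the filter on low counts edgeR called 4 members, all but Thbs3, and 0.895% of all genes. By summed counts Comp was lower in paramysial cells in 4 of 4 strain labels, with log2 differences from -4.11 to -0.63. By mean level it was lower in 3 of them, since Acta2GFP had 1596 scaled counts in 6 paramysial cells and 1417 in perimysial cells.

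Within the perimysial class, cluster 9 (59 cells) was set against cluster 2. By mean level all 5 members were lower in cluster 9 in 4 of 4 strain labels. None was called where 109 of 11843 genes were (0.92%). The share of all genes that were lower in 4 of 4 strain labels was not counted, so the shared direction has no background to be judged against. The share of cells with 100 or more was higher in cluster 9 for Thbs1 (89.8% against 75.8%) and Comp (89.8% against 80.3%). It was close for Thbs2 (94.9% against 96.3%) and Thbs3 (23.7% against 23.4%), and 100% in both for Thbs4. The median log2 fold change of all genes tested was -0.12. Thbs2 had the largest difference, at 847, 830, 1478 and 916 scaled counts in cluster 9 against 2822, 1637, 2051 and 2100 in cluster 2 (Acta2GFP, C57BL6, the pool and PdgfrbGFP). Its log2 fold change was -1.27 ± 0.24 (edgeR adjusted p = 0.065). DESeq2 called it (adjusted p = 0.00018), together with Thbs1, among 7.24% of all genes. It was the member edgeR called without the strain block (adjusted p = 0.030), among 1.12%, and without the filter on low counts edgeR called 4 members, all but Thbs3, among 1.44%. The values were -0.55 ± 0.18 for Thbs4, -0.63 ± 0.19 for Comp, -0.91 ± 0.27 for Thbs1 and -1.0 ± 0.33 for Thbs3 (edgeR adjusted p from 0.26 to 0.33). Of the paramysial markers, Postn was higher in cluster 9 (5.66 ± 0.61, edgeR adjusted p = 0.0076), while C1qtnf3 (-4.87 ± 1.48) and Cthrc1 (1.36 ± 0.33) were not called, and their part in these differences was not tested.

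In mural cells, 2140 of 13880 genes were called against all fibroblasts (15.4%), 9.27% as lower in mural cells. Thbs1, Thbs2, Thbs4 and Comp were called as lower. Comp fell by 5.94 ± 0.69 and Thbs4 by 5.47 ± 0.55 on the log2 scale (edgeR adjusted p = 0.00083 and 0.00043), with mural levels of 2.14 to 17.4 and 7.19 to 70.4 scaled counts over strain labels. Thbs2 fell by 3.52 ± 0.29 (edgeR adjusted p = 0.00020). Thbs1 had the smallest difference, -1.19 ± 0.32 (edgeR adjusted p = 0.036), and 39 of 187 mural cells reached 100 scaled counts of it. That call was lost with RLE size factors, without the block, with plates as units and without Acta2GFP, Cspg4dsRED or the pool (edgeR adjusted p from 0.063 to 0.12). The fibroblasts included perimysial cells, where Thbs1 was high. By mean level mural Thbs1 was above endomysial Thbs1 in every strain label. The mural values were 77.8, 80.9, 71.4, 40.9 and 131 (Acta2GFP, C57BL6, Cspg4dsRED, the pool and PdgfrbGFP), against 43.0, 24.0, 16.9, 14.5 and 29.0.

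Thbs3 was not called in mural cells (log2 fold change -3.16 ± 1.00, edgeR adjusted p = 0.070). It was at 34.8, 66.8, 9.00, 18.0 and 1.83 scaled counts in mural cells of Acta2GFP, C57BL6, Cspg4dsRED, the pool and PdgfrbGFP. In C57BL6 this mean was below those of its perimysial, endomysial and paramysial cells (106, 165 and 238), but the summed counts of its 9 mural cells were not lower than those of its fibroblasts (log2 difference 0.44). Without C57BL6 Thbs3 was called (-3.98, edgeR adjusted p = 0.017), in a fit that called 16.2% of all genes. It was also called with plates as units (edgeR adjusted p = 0.019, 16.5% of all genes) and by DESeq2 (adjusted p = 0.0010, 31.2% of all genes).

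**Figure D4:**
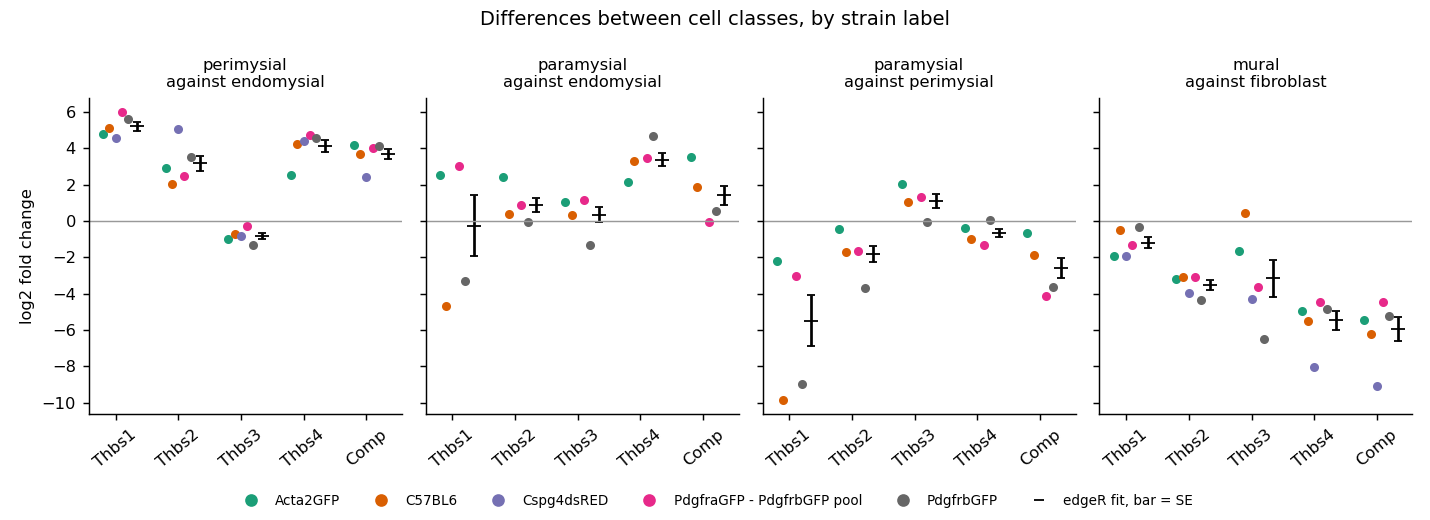
Log2 fold changes of the 5 genes in 4 comparisons of cell classes. Coloured points are single strain labels, from summed counts, and black marks with bars are the edgeR estimate and its SE. Perimysial points were above 0 for Thbs1, Thbs2, Thbs4 and Comp and below 0 for Thbs3 in all strain labels, while paramysial Thbs1 was spread on both sides of 0 against endomysial cells.

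The muscle of origin was not used by the clustering. Soleus, a slow postural muscle, and gastrocnemius were kept apart in the pool, where each muscle lay on a plate of its own, so that muscle and plate cannot be told apart there, and in part of PdgfrbGFP, where both shared a plate. With these 2 strain labels the edgeR test called 0 of 16337 genes in endomysial cells (0%) and 0 of 11698 in perimysial cells (0%), with 807 and 732 genes at an unadjusted p under 0.05. DESeq2 called 0.704% and 3.16% of them.

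Thbs4 had the most distinct pattern by muscle. In endomysial cells of the pool it was at 227 scaled counts in soleus (108 cells) and 40.2 in gastrocnemius (194 cells). In PdgfrbGFP it was at 943 in soleus (90 cells) and 242 in gastrocnemius (112 cells). Soleus was the higher in both, and the share of cells with 100 or more was 38.9% (exact 95% interval 29.7 to 48.8, counting error only) against 6.70% (3.62 to 11.2) in the pool and 58.9% (48.0 to 69.2) against 18.8% (12.0 to 27.2) in PdgfrbGFP.

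The log2 fold change of Thbs4 was 2.19 ± 0.23. Its unadjusted p, 0.00048, was the second smallest of all genes tested, but it was not called by edgeR (adjusted p = 0.97), while DESeq2 called it (adjusted p = 2.9e-13). In mural cells of the same plates, a guide to background, Thbs4 was at 40.9 (5 cells) and 39.9 (6 cells) in soleus and gastrocnemius of the pool and at 55.6 (6 cells) and 35.7 (17 cells) in PdgfrbGFP. Soleus cells were also deeper, with medians of 478544 against 290985 counts in the pool and 164594 against 130164 in PdgfrbGFP. Within cluster 3 alone Thbs4 was at 414 against 31.8 in the pool and at 1473 against 770 in PdgfrbGFP (log2 fold change 2.42). That cluster held 47 of 108 soleus and 116 of 194 gastrocnemius endomysial cells in the pool, but 51 of 90 and 19 of 112 in PdgfrbGFP, and the part of this makeup in the difference was not tested. The paramysial markers Postn, C1qtnf3 and Cthrc1 summed to 149 scaled counts in soleus and 36.0 in gastrocnemius endomysial cells of the pool and to 106 and 74.0 in PdgfrbGFP, and their part was not tested either.

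Thbs2 lay the other way in endomysial cells, at 246 in soleus against 394 in gastrocnemius of the pool and at 118 against 274 in PdgfrbGFP (log2 fold change -0.97 ± 0.23, edgeR adjusted p = 0.97, DESeq2 adjusted p = 0.051). Comp was at 195 against 49.8 in the pool and at 297 against 225 in PdgfrbGFP, and Thbs1 at 17.9 against 12.6 and at 37.1 against 12.8. Thbs3 was at 177 against 99.7 in the pool but at 161 against 160 in PdgfrbGFP. None of these was called by either tool.

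In perimysial cells Thbs4 did not share the soleus excess. It was at 3341 in soleus (16 cells) and 4099 in gastrocnemius (20 cells) of the pool, and at 6624 (16 cells) and 8415 (19 cells) in PdgfrbGFP (log2 fold change -0.40 ± 0.18, or -0.05 in cluster 2 alone). Comp was at 2015 and 1859 in the pool and at 2522 and 3318 in PdgfrbGFP. Thbs1 differed in opposite directions, at 538 in soleus against 1344 in gastrocnemius of the pool and at 1077 against 869 in PdgfrbGFP. None of the members was called there by either tool. The paramysial markers summed to 724 scaled counts in soleus and 114 in gastrocnemius perimysial cells of the pool and to 695 and 89.0 in PdgfrbGFP. They did not move together: the log2 fold change was 7.22 ± 1.07 for Postn, 0.98 ± 0.45 for Cthrc1 and -4.85 ± 1.39 for C1qtnf3, none called by edgeR (adjusted p from 0.42 to 0.89). Cluster 9, where Postn was also higher, held 8 of 16 soleus and 1 of 20 gastrocnemius perimysial cells in the pool and 9 of 16 and 1 of 19 in PdgfrbGFP. The part of the markers and of this makeup in the values by muscle was not tested.

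The difference between perimysial and endomysial cells in the effect of muscle was tested as an interaction, in which edgeR called 0 of 15386 genes (0%), with 1018 at an unadjusted p under 0.05, and DESeq2 called 2.37%. Thbs4 had an interaction of -2.53 ± 0.47 on the log2 scale, with an unadjusted p of 0.0011 and an edgeR adjusted p of 0.59, and was called by DESeq2 (adjusted p = 0.0041). Thbs1, Thbs3 and Comp lay at -1.49 ± 0.55, -1.47 ± 0.57 and -1.43 ± 0.56 and Thbs2 at 0.17 ± 0.41, and neither tool called them.

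**Figure D5:**
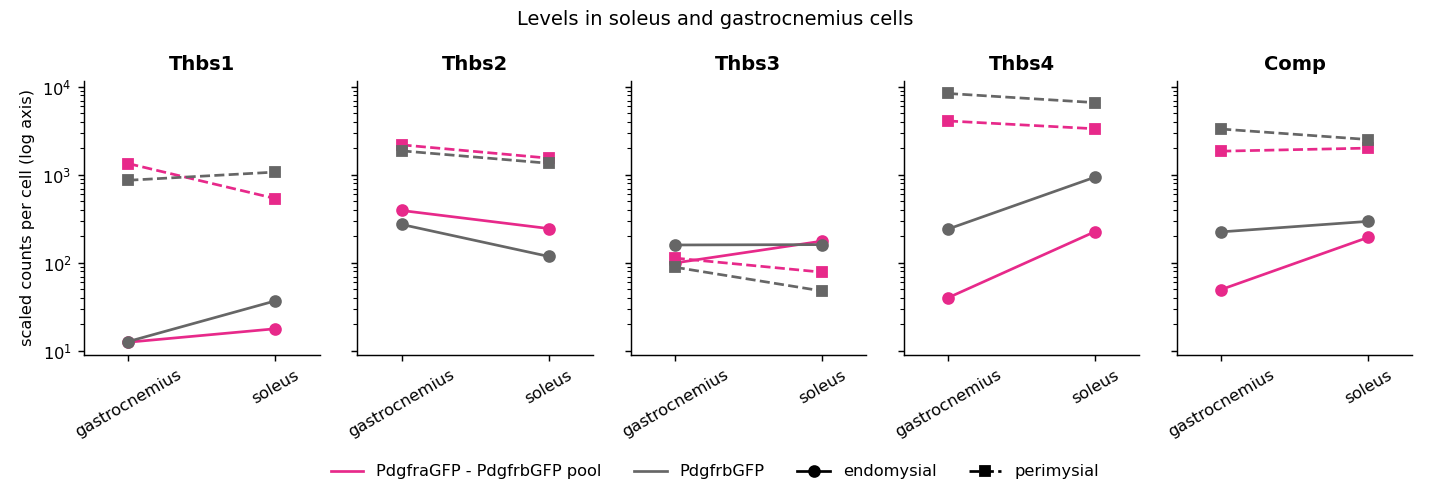
Mean level (scaled counts per cell, log axis) in gastrocnemius and soleus cells. Each line joins the muscles of a strain label, with circles for endomysial and squares for perimysial cells. Thbs4 was higher in soleus endomysial cells of both strain labels and lower in soleus perimysial cells of both.

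Genes whose products bind, activate or cut thrombospondins were taken from lists. Of 15 matrix partners, 11 were tested between perimysial and endomysial cells, and 7 were higher, none lower and 4 not called, with a median log2 fold change of 4.92 against -0.19 for all genes. They included the cartilage collagen Col2a1 (9.08 ± 0.51), the matrilins Matn3 (8.47 ± 0.67) and Matn4 (7.07 ± 0.65), and fibromodulin, Fmod (5.72 ± 0.31), each with an edgeR adjusted p of 0.00096 or less. In mural cells 9 of 9 tested partners were lower. Against perimysial cells, paramysial cells had 4 of 11 partners lower, namely Matn4, Matn3, Col2a1 and Fmod.

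Of 16 receptors, 2 were higher, 3 lower and 11 not called in perimysial cells. Vldlr, a lipoprotein receptor that binds thrombospondin, was lower (log2 fold change -6.73 ± 0.50), as was the fibronectin receptor chain Itga5 (-1.22 ± 0.25), while the syndecan Sdc1 (2.51 ± 0.32) and the integrin chain Itgb1 (0.54 ± 0.12) were higher (edgeR adjusted p from 0.00044 to 0.041). In mural cells 3 receptors were higher and 3 lower. Cd36 was higher (5.59 ± 0.48) and Cd47 was lower (-1.30 ± 0.25), both receptors of Thbs1 (edgeR adjusted p = 0.00024 and 0.0099). Endothelial markers, which share Cd36 as a capillary gene, summed to 29.9 scaled counts in mural cells (4.12 to 110 over strain labels), and their part in the Cd36 value was not tested.

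Of 12 genes of the latent TGF-beta axis, 4 were higher, 1 lower and 7 not called in perimysial cells. The higher genes included Ltbp2 (4.38 ± 0.57), Ccn2 (2.20 ± 0.28) and Tgfb3 (2.05 ± 0.28), and the lower gene was Ltbp4 (-1.47 ± 0.13), a latent TGF-beta binding protein like Ltbp2 (edgeR adjusted p from 0.00084 to 0.0058). Of 10 proteases, 8 were tested, and Adamts5 was lower (-3.89 ± 0.39) and Mmp2 higher (0.51 ± 0.09).

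Over the 40 units of cluster and strain label, the gene most like Thbs1 was Gm29233, which overlaps it on the opposite strand (Pearson r = 0.92 on log2 levels), followed by Rgs2 (0.82) and Ggta1, Gm42928 and Col2a1 (0.78 to 0.79). Thbs2 was most like Ssc5d, Ogn, Lox, Fndc1 and Gm15851 (0.73 to 0.81), and Thbs3 like S100a10, Medag, Prnp, Lrrn4cl and Rnase4 (0.79 to 0.83). For Thbs4 these were Col8a2, Fibin, Col11a1, Fkbp10 and Cnn3 (0.78 to 0.85), and for Comp 1500015O10Rik, Clec11a, Galr2, Prg4 and Itgbl1 (0.82 to 0.87). Among members the highest value was that of Thbs4 and Comp (0.72) and the lowest that of Thbs1 and Thbs3 (-0.32). The units share plates and strain labels, and these values are descriptions over 13589 genes.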

How the data were processed

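Single cells of mouse skeletal muscle were sorted into 384-well plates and sequenced by SmartSeq2. The authors aligned the reads with TopHat2 and Bowtie to GRCm38 and counted them per gene with featureCounts, and the deposited table holds these raw counts for 46517 genes and 92 spike-ins, excluded here, at 1.31% of the counts. The authors state that doublets were removed with samtools, and no doublet caller was run here. One column without a sample label (1 in all) was not used, and no columns were identical. Full-length reads without molecular identifiers are not independent molecules. Intervals and limits were computed from numbers of cells, taken as independent although cells share plates and strain labels, so they cover counting error only.

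Cells were grouped by the deposited cluster labels, and symbols were matched for 46005 identifiers. For tests, counts were summed over the cells of a class within each strain label with 3 or more cells in both classes. They were fitted in edgeR 4.0.16 (R 4.3.3, TMM, filterByExpr, quasi-likelihood test) with the strain label as block and Benjamini-Hochberg adjustment over all genes, called at an adjusted p under 0.05. The tests were checked on simulated counts. For perimysial against endomysial cells (13876 genes), 22.7% of 97 genes changed by 2 on the log2 scale and 69.1% of 94 changed by 4 were recovered, with 0 false calls. For soleus against gastrocnemius endomysial cells (15721 genes), 47% of 100 and 83.8% of 99 were recovered, with 31 false calls.

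Alternatives were RLE size factors, DESeq2 1.42.0, no filter on low counts, no strain block, plates as units, 10 or more cells per unit, leaving out each strain label, single clusters for the muscle comparisons, summed counts for levels, detection at 20 scaled counts and cells thinned to 50000 counts. The text names all members, at most 4 called genes of each list with the largest changes, genes that check a cell type, and for each member the 5 genes most correlated with it over units of 3 or more cells, on log2(level + 1), among genes that reach 10 scaled counts in a unit. The members and lists were chosen with earlier results of these data known.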

Additional observations from a re-analysis of the deposited data

Results flagged for a closer look

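In paramysial cells Thbs2 was lowest in PdgfrbGFP, at 131 scaled counts over 4 cells against 525 to 669 in the other strain labels. The gap to the nearest of the others was 0.852 of the whole range, above the critical value of 0.829 for 4 samples. This was 1 of 50 groups tested, and chance flags about 1 group in 20.

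Thbs4 differed between soleus and gastrocnemius in opposite directions in endomysial and perimysial cells of both strain labels, with an interaction of -2.53 on the log2 scale. DESeq2 called that difference (adjusted p = 0.0041) and edgeR did not (adjusted p = 0.59). Within cluster 2 alone the perimysial difference of Thbs4 was much smaller, as given above. By summed counts Comp had log2 differences of 1.99 and 0.33 in endomysial cells and of -0.14 and -0.60 in perimysial cells (the pool and PdgfrbGFP), with an interaction of -1.43 that neither tool called (edgeR adjusted p = 0.74). The opposite sign did not hold for mean levels in the pool, where perimysial cells had 2015 scaled counts in soleus and 1859 in gastrocnemius, nor in cluster 2 alone (log2 fold change 0.21).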

How the results depend on the processing

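Of 335 log2 fold changes of members under the alternatives, 290 kept their direction and, where a test was run, their side of the threshold. Of the rest, 22 passed the threshold and 16 lost it. The other 7 changed sign: Thbs1 in paramysial against endomysial cells (1.75 with no strain block, 1.43 without C57BL6, 1.28 without PdgfrbGFP, and -2.33 to 1.43 over all strain labels left out), Thbs3 there (-0.0115 without Acta2GFP, to 0.83 without PdgfrbGFP), Thbs3 in soleus endomysial cells (-0.21 without the pool), and in soleus perimysial cells Thbs1 (0.23 without the pool) and Comp (0.21 in cluster 2 alone). None of these was called, and their causes were not tested. The number of members called went from 1 to 0 for paramysial against endomysial cells with no strain block. For paramysial against perimysial cells it went from 0 to 2 with DESeq2, 4 with no filter and 0 to 3 when a strain label was left out. For cluster 9 against cluster 2 it went from 0 to 2 with DESeq2, 4 with no filter and 1 with no strain block. DESeq2 called 1 member instead of 0 in soleus endomysial cells and in the interaction.

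Counts of genes called moved by over 1.5 times as follows. Perimysial against endomysial cells (787) gave 2068 with DESeq2, 1294 with plates as units and 395 to 1416 without a strain label. Paramysial against endomysial cells (14) gave 787, 26 and 10 to 64, and 8 with no strain block. Paramysial against perimysial cells (112) gave 1087 with DESeq2, 225 with no filter and 60 to 118 without a strain label. Cluster 9 against cluster 2 (109) gave 857 with DESeq2, 345 with no filter, 41 with plates as units, 35 with 10 or more cells and 35 to 50 without a strain label. Mural cells (2140) gave 4336 with DESeq2 and 1230 to 2257 without a strain label. In the muscle comparisons DESeq2 gave 115, 370 and 365 against 0, and in perimysial cells no filter gave 1 and cluster 2 alone 3.

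Of 250 levels by cluster, 248 moved by less than 1 SD. Most of these left out 1 strain label, which cannot move a mean by 1 SD of the same values. Their number is therefore no measure of stability, and the 2 that moved came from summed counts. At a detection level of 20, 24 of 50 shares of cells moved by more than 1 SD. With 10 or more cells the paramysial comparisons left 1 strain label and were not run, and the perimysial against endomysial and muscle comparisons kept the same libraries. Leaving out a strain label in the muscle comparisons left no residual degrees of freedom, so only values were given.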
